A study of Sus scrofa with 43 samples.

Results

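The genes described here carry a CD (cluster of differentiation) number, the naming system for molecules on the surface of leukocytes. A gene was a member when a probe of the pig array was annotated to a pig RefSeq transcript whose symbol consists of CD, a number and at most 3 further letters or digits, with CD74 and CD79A left out. There were 38 members among the 35884 transcript accessions on the array, covered by 70 probes. Of the 38, 9 were placed with T and natural killer (NK) cells (CD2, CD3D, CD3E, CD3G, CD4, CD8A, CD40LG, CD96 and CD247), 13 with myeloid and antigen presenting cells, 3 with B cells (CD72 and CD180 among them) and 12 were broadly expressed. The remaining member, CD5L, encodes a protein secreted by macrophages and is no surface antigen. No probe was annotated to CD5, CD8B or CD68.

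RNA came from scrapings of the jejunum of 43 piglets, 1 array per piglet. Hypor gilts and sows received 15 mg/kg amoxicillin (Paracillin SP) by mouth each day from 1 wk before the expected farrowing until farrowing, and control sows received the standard feed. The piglets were healthy males sampled at day 1, day 7, weaning, 4 d postweaning and 4 wk postweaning. The control groups held 6, 6, 3, 5 and 3 piglets at these ages, and the amoxicillin groups 4 at each age. According to the methods 1 piglet was taken per sow at each age, but the labels do not give the sow, nor the batch of sows, so littermates at different ages could not be recognised. Scrapings hold epithelium, lamina propria and variable amounts of lymphoid tissue, and 14 of 14 enterocyte markers with a probe were bright enough to be tested. In such bulk tissue fewer cells of a type and less RNA per cell cannot be told apart.

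T cells recognise antigen with a receptor that signals through the CD3 chains and CD247 (CD3 zeta), while CD4 and CD8 are the coreceptors that divide them into helper and cytotoxic cells. Many of the T cells in the small intestine lie within the epithelium, and these intraepithelial lymphocytes are few at birth in pigs and accumulate with age. Macrophages and dendritic cells of the lamina propria carry scavenger receptors such as CD163 and CD36, and activate T cells through costimulatory ligands such as CD80 and CD86. B cells carry CD72 and CD180 and gather in the follicles of Peyer's patches, which lie along the jejunum.

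Detection differed widely among the members. A spot was taken as detected when the scanner software placed it well above background, and a member when any of its probes was. Of the 38 members 17 were detected on all 43 arrays: 3 of the 9 T and NK members (CD3E, CD3G and CD247), 6 of the 13 myeloid members (CD14, CD36, CD40, CD86, CD163 and CD302), none of the 3 B members and 8 of the 12 broad members (CD9, CD34, CD46, CD47, CD48, CD58, CD81 and CD82). A further 8 were detected on 30 to 42 arrays and 11 on 10 to 29. The 2 members under 10 arrays were CD163L1, a scavenger receptor detected on 1 array, and CD59, a complement inhibitor detected on 2.

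Members were detected less often on amoxicillin arrays, and so were spots in general. Control arrays had 25 to 35 members detected (median 31) and amoxicillin arrays 18 to 33 (median 26), beside 15937 to 29827 and 16150 to 26290 gene spots well above background. The gap was wide for CD4 (20 of 23 control and 9 of 20 amoxicillin arrays), CD274 (16 and 4), CD55 (23 and 10) and CD209 (10 and 1). The control arrays lay on 3 slides and the amoxicillin arrays on 3 others, which means that the treatment cannot be told apart from the slide. Control piglet 34 of 4 wk postweaning had the fewest detected spots (15937) and 25 detected members.

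**Figure D1:**
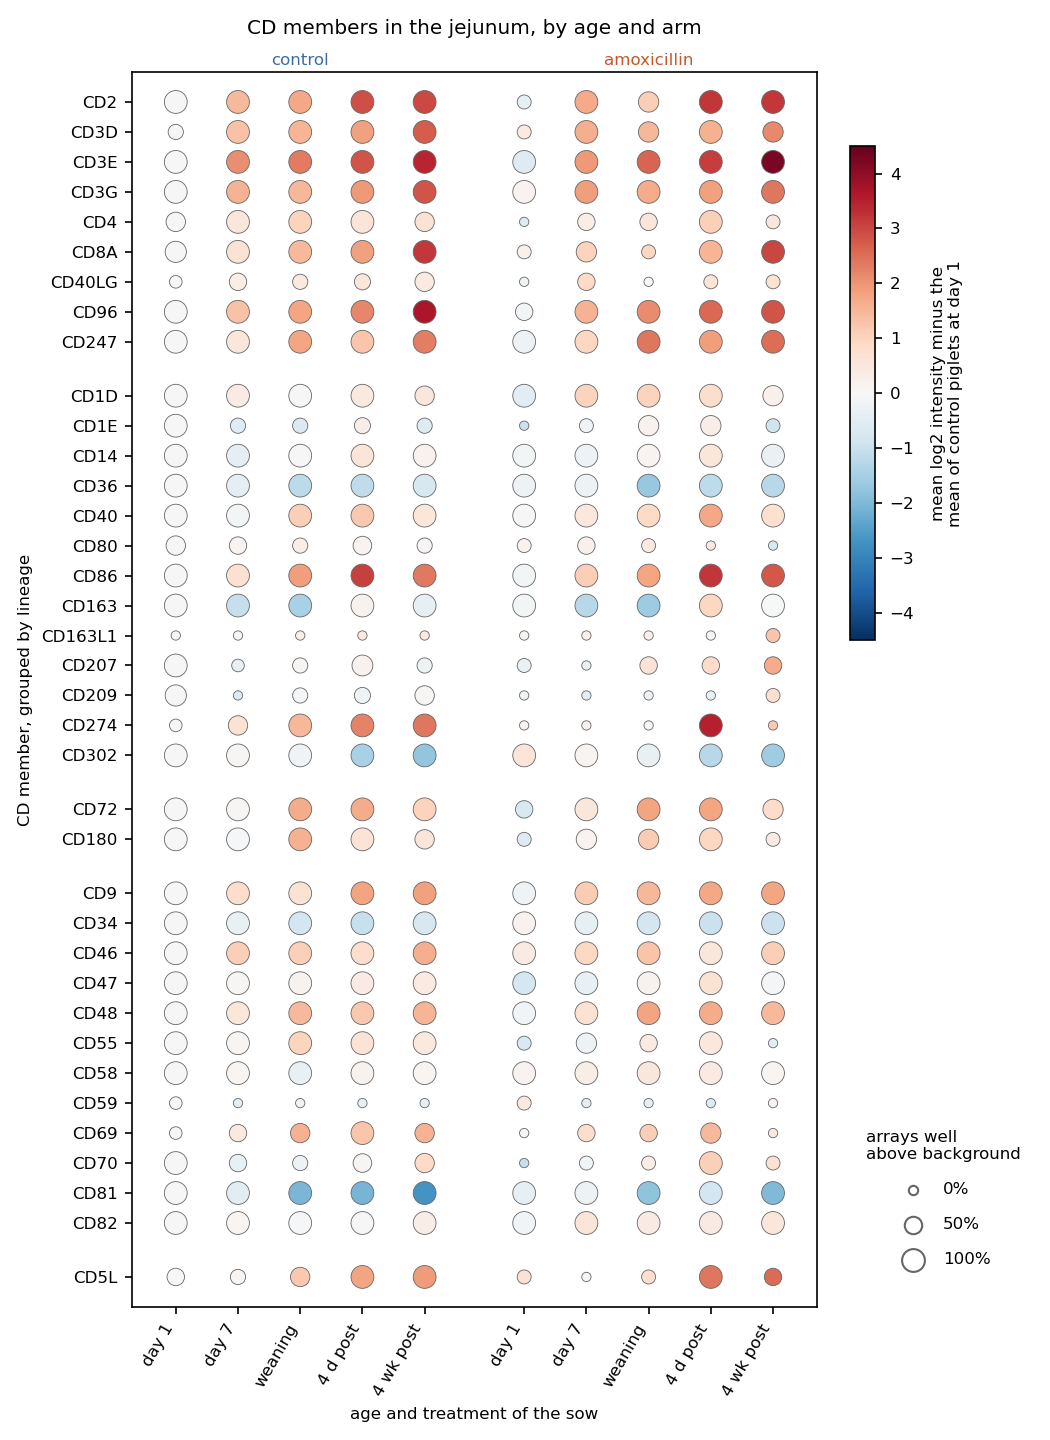
Mean log2 intensity of 37 of the 38 members in the 5 ages of both arms (columns), as the difference from the mean of the control piglets at day 1 (colour), with the share of arrays on which the member was detected as the size of the circle. In the upper block, the T and NK members, 7 of 9 rose in both arms, and CD81 and CD302 go the other way.

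Intensities below are normalised log2 values of a gene, averaged over its probes. Different probes are not on a common scale, so levels are compared only within a gene. Tests are limma contrasts over all 43 arrays with Benjamini-Hochberg adjustment. Of the 38 members 19 were bright enough for the fit of 12771 genes that passed the filter on dim spots (7 T and NK, 5 myeloid, 7 broad). Counts over the members come from a fit of all 35884 accessions without that filter. Adjusted p-values of single genes come from the filtered fit for those 19 and from the unfiltered fit for the other 19.

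Between day 1 and 4 wk postweaning 14 of the 38 members rose and 2 fell in control piglets, where 11.7% of all accessions were called (6.3% higher and 5.4% lower). In amoxicillin piglets 16 rose and 4 fell, where 26.4% of all accessions were called (12.6% higher and 13.8% lower). The 9 T and NK members gave 7 of the rises in the control arm and 8 in the amoxicillin arm, with 7 in both, and none fell. Their median difference was 2.82 on the log2 scale in control and 2.78 in amoxicillin piglets, against -0.03 and -0.02 over all accessions. Of the 13 myeloid members 2 rose and 1 fell in the control arm, and 3 rose and 2 fell in the amoxicillin arm. Of the 12 broad members 4 rose and 1 fell, and 4 rose and 2 fell, respectively, and none of the 3 B members was called in either arm. Without control piglet 34 of 4 wk postweaning 11 members rose and 1 fell in the control arm, with 7 T and NK members again among the rises, where 5.86% of all accessions were called.

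CD3E (NM_214227), the epsilon chain of the T cell receptor complex, had the largest difference of the 19 tested members in amoxicillin piglets. At day 1 its intensity in the 6 control piglets ran from 8.00 through a median of 8.35 to 8.93, and it was 7.02, 7.53, 8.61 and 8.07 in the 4 amoxicillin piglets. At 4 wk postweaning it was 12.19, 11.85 and 11.41 in control and 12.99, 12.28, 13.23 and 12.18 in amoxicillin piglets. Every piglet at 4 wk postweaning lay more than 2 units above every piglet at day 1 in both arms. The difference was 3.43 ± 0.47 (SE) on the log2 scale in control piglets, 10.8-fold (limma, adjusted p = 1.33e-06). In amoxicillin piglets it was 4.87 ± 0.47, 29.1-fold (limma, adjusted p = 8.92e-10). The treatment difference of CD3E was not found to change with age, as given with the treatment comparison.

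The other chains of the receptor complex moved in the same direction. CD3G was 6.08 to 7.08 (median 6.65) in control piglets and 6.93, 6.66, 6.31 and 7.09 in amoxicillin piglets at day 1. At 4 wk postweaning it was 9.82, 9.18 and 9.31 in control and 8.79, 8.27, 8.98 and 10.01 in amoxicillin piglets, again without overlap with day 1. It rose by 2.82 in control (adjusted p = 1.83e-05) and 2.26 in amoxicillin piglets (adjusted p = 2.51e-04). CD3D rose by 2.72 (adjusted p = 6.59e-05) and 1.77 (adjusted p = 0.00510). Its amoxicillin groups overlapped, because amoxicillin piglet 2 of day 1 stood at 7.00 and piglet 38 of 4 wk postweaning at 6.25, the latter not above background. CD247, the signalling chain, rose by 2.32 (adjusted p = 0.00242) and 2.78 (adjusted p = 3.10e-04).

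CD8A (NM_001001907), the coreceptor of cytotoxic T cells and of most intraepithelial lymphocytes, had the largest F statistic between ages among the tested members in the control arm. At day 1 it was 4.98 to 5.96 (median 5.54) in control piglets and 5.14, 5.23, 5.81 and 6.81 in amoxicillin piglets, of which only the last was detected. At 4 wk postweaning it was 8.89, 8.52 and 8.68 in control and 8.27, 8.65, 9.04 and 8.15 in amoxicillin piglets, with no overlap with any younger group in either arm. The difference was 3.19 ± 0.32, 9.11-fold, in control piglets (adjusted p = 5.79e-09) and 2.78 ± 0.32, 6.87-fold, in amoxicillin piglets (adjusted p = 4.30e-08). Its 2 probes differed in size but not in direction, with control differences of 4.90 and 1.47.

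CD4, the coreceptor of helper T cells, was called in amoxicillin piglets alone, and whether the arms differ in this change was not tested. In control piglets it was 4.87 to 5.36 (median 5.20) at day 1 and 5.77, 5.72 and 5.97 at 4 wk postweaning, a difference of 0.65 with a 95% interval of 0.10 to 1.19 that was not called (limma, adjusted p = 0.124). In amoxicillin piglets it was 4.58, 4.41, 4.70 and 4.56 at day 1, none of them above background, and 5.49, 5.33, 6.24 and 5.65 at 4 wk postweaning, where 1 of 4 was detected. That rise was called (limma without the filter, adjusted p = 0.00220), but its size is uncertain, because most of these piglets had no detected spot at either age. These values average 2 probes, of which the second was above background on 0 of 43 arrays. The first alone, detected on 29 arrays, differed by 0.82 in control (adjusted p = 0.158) and 1.76 in amoxicillin piglets (limma by probe, adjusted p = 5.02e-04). CD40LG, the ligand with which activated helper cells stimulate B cells, was detected on 13 arrays and was called in neither arm.

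CD2, an adhesion receptor of T and NK cells, and CD96, a receptor of the same cells that binds nectin family ligands, both rose in both arms. CD2 was 6.16 to 7.37 (median 6.85) in control and 6.22, 6.22, 6.75 and 6.48 in amoxicillin piglets at day 1. By 4 wk postweaning it reached 10.09, 9.09 and 10.24 in control and 9.65, 9.05, 10.68 and 10.64 in amoxicillin piglets, above every day 1 piglet. The rise was 2.98 (7.87-fold, adjusted p = 2.90e-05) in control and 3.59 (adjusted p = 1.11e-06) in amoxicillin piglets. CD96 rose by 3.68 (12.8-fold, adjusted p = 3.82e-08) and 2.94 (7.68-fold, adjusted p = 1.27e-06). It stood at 10.27, 11.28 and 10.20 in control piglets and 9.40, 9.33, 9.64 and 10.55 in amoxicillin piglets at 4 wk postweaning.

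**Figure D2:**
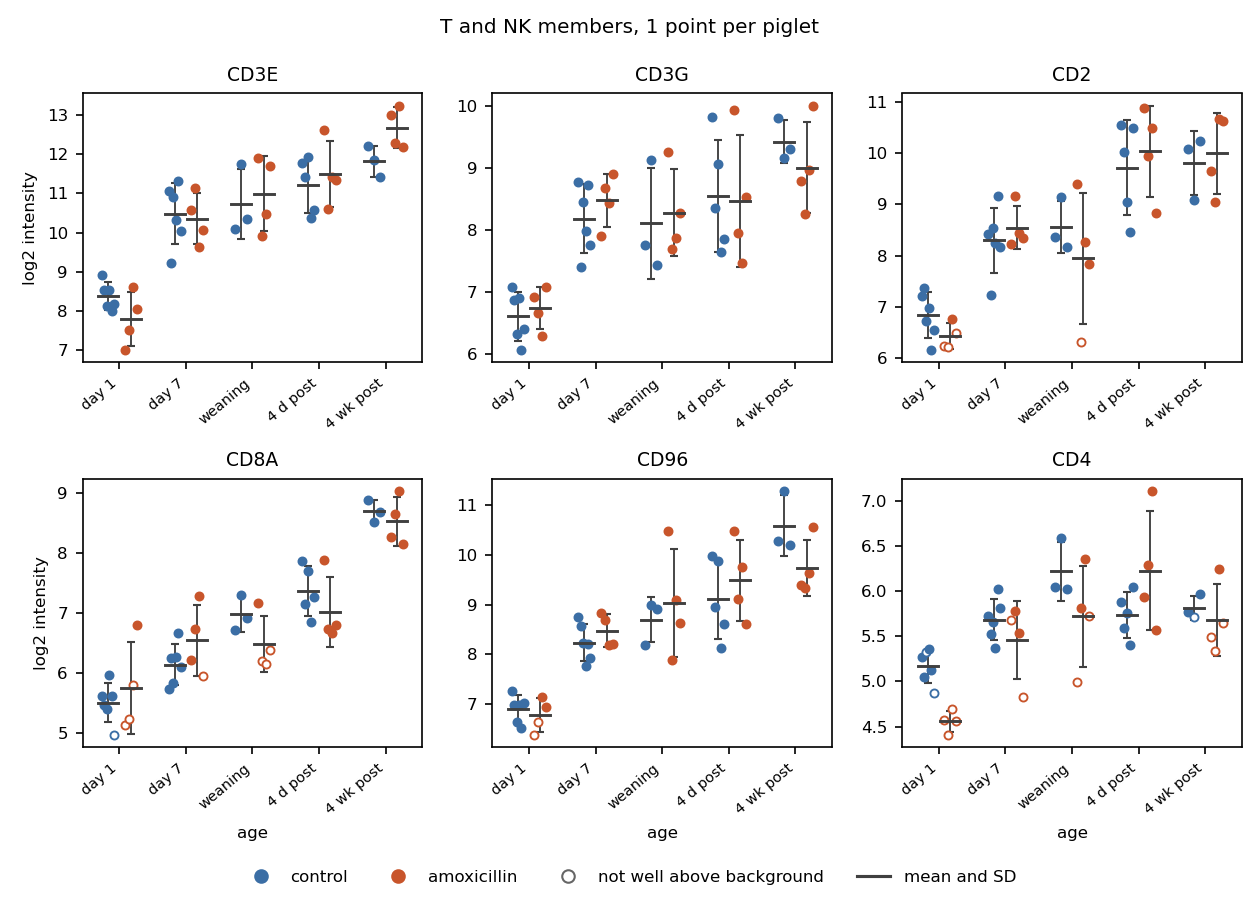
Log2 intensity (vertical axis) of CD3E, CD3G, CD2, CD8A, CD96 and CD4 in each piglet by age, with the group mean and SD, and open circles for piglets in which the gene was not well above background. CD3E steps up between day 1 and day 7, a step not called within slides. The group means of CD3E and CD8A are both highest at 4 wk postweaning, with CD8A at 8.15 to 9.04 over both arms.

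The intervals over which T members were called were not all the same, and a difference in timing between members was not tested. From day 1 to day 7 CD3E rose by 2.09 in control (adjusted p = 0.00163) and by 2.55 in amoxicillin piglets (adjusted p = 0.00224), when 1.43% and 0.736% of tested genes were called. CD96 rose in the same interval by 1.33 (adjusted p = 0.0316) and 1.69 (adjusted p = 0.0382), CD3G by 1.57 in control piglets (adjusted p = 0.0209) and CD2 by 2.13 in amoxicillin piglets (adjusted p = 0.0272). Slide was partly confounded with age, and within slides the call of CD96 in control piglets remained (1.75, adjusted p = 0.0291). The others were lost there, at 1.75 (adjusted p = 0.143) and 2.64 (0.0829) for CD3E, 1.48 (0.167) for CD3G in control piglets and 2.20 (0.232) for CD2 and 1.78 (0.352) for CD96 in amoxicillin piglets. From weaning to 4 d postweaning CD2 rose by 2.09 in amoxicillin piglets (adjusted p = 0.0101, 6.37% of tested genes called), from 9.41, 6.30, 8.26 and 7.83 to 10.89, 9.95, 10.50 and 8.84. From 4 d to 4 wk postweaning CD8A rose by 1.51 in amoxicillin piglets (adjusted p = 0.00278, 12.7% of tested genes called). In control piglets no member was called over the last 3 intervals, in which 0.125%, 2.53% and 0% of tested genes were. In the last of these 789 genes had an unadjusted p under 0.05. Whether the arms differ in these intervals was not tested.

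Day 1 and 4 wk postweaning arrays never shared a slide, so an age comparison freed of slide runs through the ages in between. In control piglets 1 array 4 d postweaning, piglet 10, links the slides of younger ages with that of 4 wk postweaning. In amoxicillin piglets the slides are linked by 1 day 7 array, piglet 24, and 1 array 4 d postweaning, piglet 34. Values with slide as a fixed block therefore lean on these arrays. In the filtered fit 13 of the 19 tested members were called in control and 14 in amoxicillin piglets, where 25.6% and 31.4% of tested genes were. The F-test between ages called 13 and 15, with 30.5% and 47% of tested genes. A member bright in 1 group alone could pass the filter, as CD3D did, and CD8A passed it in 2 groups. The filtered counts therefore partly follow from the filter, and counts without it are given as well. With slide as a fixed block within an arm 5 of the 19 tested members stayed called in control piglets: CD96 (5.39), CD3D (4.30), CD3G (4.28), CD8A (3.59) and the myeloid CD86 (2.91, adjusted p = 0.0361), with 245 of 12475 genes called. In amoxicillin piglets CD86 alone was called (4.70, adjusted p = 0.0346), with 108 genes called. CD3E was then 3.61 (adjusted p = 0.0582) in control and 5.45 (adjusted p = 0.0616) in amoxicillin piglets, and CD2 3.32 (adjusted p = 0.0742) and 5.46 (adjusted p = 0.0577). With slide as a random block and no filter 7 T and NK members were called higher in control and 8 in amoxicillin piglets, as without it. The calls it ended were those of CD46 (adjusted p = 0.151) and CD5L (0.0742) in control and of CD209 (0.0648), CD36 (0.0956), CD5L (0.0705) and CD82 (0.137) in amoxicillin piglets. Within slides that held both ages, CD8A rose by 1.45 (adjusted p = 0.0114) and CD96 by 1.69 (adjusted p = 0.0336) from 4 d to 4 wk postweaning in control piglets. In amoxicillin piglets neither was called within slides, at 1.72 for CD8A and 1.13 for CD96. There 1 array 4 d postweaning shared a slide with 4 wk postweaning.

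Markers of T and NK cells without a CD name rose as well, with a median of 3.31 in each arm over the 10 that passed the filter. Called were 9 of 10 tested genes in control and 10 of 10 in amoxicillin piglets (16 of the 29 listed had a probe). Of all tested genes 25.6% and 31.4% were called in either direction. A gene bright at 1 age alone could pass the filter, so the counts and the median of each marker list partly follow from it. The cytotoxic granule proteases GZMA (6.55 and 5.48) and GZMB (6.10 and 5.29) and the chemokine CCL5 (5.12 and 5.35) rose, while LCK, the kinase that starts receptor signalling, rose by 2.75 in each arm. The summed level of the list, as log2, ran from 11.66 to 12.59 at day 1 and from 16.50 to 16.91 at 4 wk postweaning in control piglets, and from 11.44 to 12.75 and from 16.26 to 17.42 in amoxicillin piglets. Over the same interval 4 and 3 of 5 endothelial markers fell. Of the 14 tested enterocyte markers 10 were saturated on 25 to 42 arrays, so the list is not read as a measure of change. Of 3 tested B and plasma cell markers none was called in either arm, of 2 tested follicle markers 1 rose and 1 fell in each, of 7 smooth muscle markers 1 and 2 fell and of 3 pancreatic markers 1 fell in each. The part of tissue composition in the CD members was not tested.

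Among the myeloid and antigen presenting members CD86 (NM_214222), the costimulatory ligand that binds CD28 on T cells, rose most evenly. At day 1 it was 6.94 to 7.51 (median 7.11) in control and 6.95, 6.75, 7.50 and 6.94 in amoxicillin piglets. It was highest 4 d postweaning, at 10.85, 10.15, 9.78, 9.63 and 10.84 in control and 10.85, 11.21, 10.54 and 8.94 in amoxicillin piglets. At 4 wk postweaning it was 10.14, 9.28 and 9.22, and 9.08, 10.44, 10.59 and 9.71. No piglet at or after weaning overlapped with day 1 in either arm. The rise from day 1 to 4 wk postweaning was 2.37 ± 0.40 (5.19-fold, adjusted p = 3.13e-05) in control and 2.92 ± 0.40 (7.56-fold, adjusted p = 9.00e-07) in amoxicillin piglets, and CD86 stayed called in both arms with slide as a fixed block.

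CD80, the other ligand of CD28, was detected on 16 arrays and was called in neither arm, at 0.05 in control and -0.91 in amoxicillin piglets. CD40, the receptor through which helper cells activate antigen presenting cells and B cells, was detected on all arrays and differed by 0.54 (95% interval -0.56 to 1.65) and 0.69 (-0.42 to 1.79). CD14, the lipopolysaccharide coreceptor of monocytes, differed by 0.19 and -0.16 without a call.

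CD163 (NM_213976), the haemoglobin scavenger receptor of tissue macrophages, was not called between day 1 and 4 wk postweaning, at -0.41 (95% interval -1.62 to 0.81) in control and 0.08 (-1.14 to 1.29) in amoxicillin piglets. Its group mean was lowest at weaning and highest 4 d postweaning in both arms. In amoxicillin piglets it was 6.75, 7.44, 6.41 and 7.05 at weaning and 10.08, 10.28, 9.31 and 8.30 4 d postweaning, which did not overlap. This rise of 2.58 ± 0.60 was called (5.98-fold, adjusted p = 0.00847), also between arrays on the same slide (2.98, adjusted p = 0.0117). In control piglets CD163 was 8.37, 6.86 and 5.96 at weaning and 9.75, 8.39, 7.40, 9.59 and 8.39 4 d postweaning. The within-slide difference of 2.69 was not called and rested on 1 array 4 d postweaning, that at 9.75. CD86 rose over the same interval in amoxicillin piglets by 1.45 (adjusted p = 0.0262).

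CD302, a C-type lectin receptor of macrophages and dendritic cells, fell in both arms. It was 10.20 to 11.40 (median 10.73) in control and 11.84, 10.76, 11.60 and 11.25 in amoxicillin piglets at day 1. It was 9.08, 8.30 and 9.69, and 8.04, 9.25, 10.11 and 9.32, at 4 wk postweaning, below every day 1 piglet. The difference was -1.77 (adjusted p = 0.00210) in control and -2.19 (adjusted p = 1.85e-04) in amoxicillin piglets. Without control piglet 34 of 4 wk postweaning the control value was -1.41 and still called (adjusted p = 0.0455), while without both that piglet and the filter it was not (adjusted p = 0.0889). CD36, a fatty acid transporter found on macrophages and on enterocytes, fell by 1.03 in amoxicillin piglets (adjusted p = 0.0283) and stood at -0.75 in control piglets (adjusted p = 0.130). The amoxicillin call was lost without piglet 2 or 21 of day 1 or 37 or 38 of 4 wk postweaning (limma, adjusted p = 0.0508 to 0.0881). With arrays scaled to a common 75th percentile it was lost as well (limma, adjusted p = 0.0584 and 0.0759). The 4 probes of CD36 gave -1.94 to -0.28 in amoxicillin piglets.

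**Figure D3:**
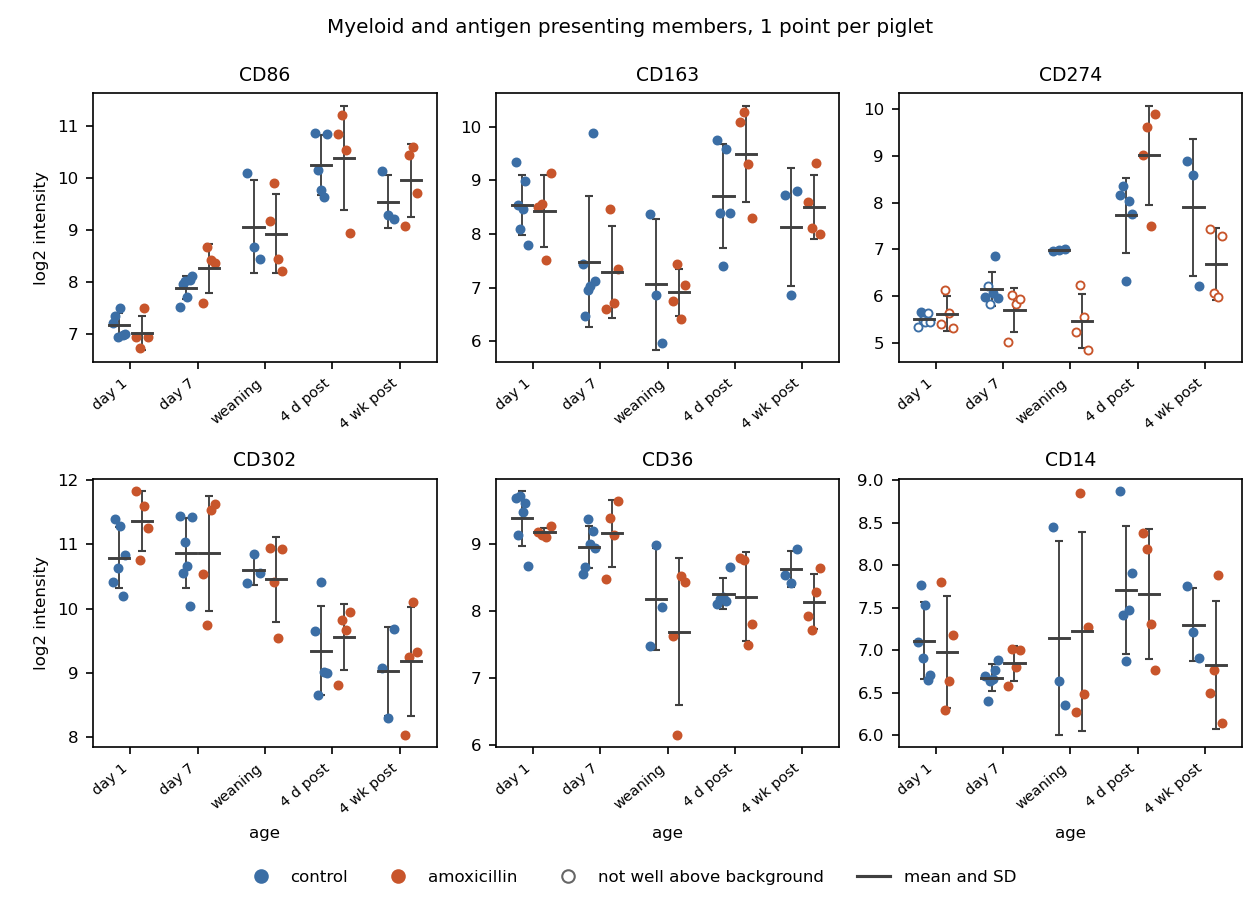
Log2 intensity (vertical axis) of CD86, CD163, CD274, CD302, CD36 and CD14 in each piglet by age, with the group mean and SD, and open circles for piglets in which the gene was not well above background. CD274 in amoxicillin piglets was detected in 4 d postweaning piglets alone, at 7.51 to 9.89.

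CD274 (PD-L1, NM_001025221), the ligand of the inhibitory receptor PD-1, had a pattern over age that differed between the arms when dim genes were kept. In control piglets it was 5.34 to 5.66 (median 5.48) at day 1 and 6.96, 7.00 and 7.02 at weaning. It was 8.17, 8.35, 6.33, 8.04 and 7.75 4 d postweaning and 8.89, 8.60 and 6.22 at 4 wk postweaning. It rose in them by 2.40 between day 1 and 4 wk postweaning (limma without the filter, adjusted p = 3.97e-04).

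In amoxicillin piglets CD274 was above background in none at day 1, day 7, weaning or 4 wk postweaning. At weaning it was 5.23, 6.24, 5.55 and 4.86, 4 d postweaning 9.03, 9.62, 7.51 and 9.89, all detected, and at 4 wk postweaning 7.44, 6.07, 5.99 and 7.29. The 4 d postweaning piglets lay above all others of that arm. The group mean 4 d postweaning was at least 8.70-fold higher than at weaning (fitted 3.54, adjusted p = 6.19e-05) and at least 4.98-fold higher than at 4 wk postweaning (fitted -2.32, adjusted p = 0.00128).

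Of the 38 members CD274 was the only one whose treatment difference changed with age in the unfiltered fit (F = 5.81, adjusted p = 0.0278), where 5.54% of all accessions were called. On group means, control piglets were at least 2.14-fold higher at weaning and at least 2.31-fold higher at 4 wk postweaning. These bounds allow for undetected signal and not for the spread between piglets. At 4 wk postweaning control piglet 37, at 6.22, lay below amoxicillin piglets at 7.44 and 7.29. The differences at weaning and 4 wk postweaning were not called (adjusted p = 0.0692 and 0.152), nor was the opposite difference of 1.28 4 d postweaning (adjusted p = 0.175). CD274 failed the filter on dim spots and has 1 probe. At weaning 25560 to 27339 gene spots were detected on the control arrays and 20222 to 22838 on the amoxicillin arrays, and their part in the difference was not tested.

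The other members of this lineage were dim. CD207 (langerin, NM_001129957), a lectin of Langerhans and some dendritic cells, rose in amoxicillin piglets by 1.97 (adjusted p = 0.00118) and CD209 (DC-SIGN), a lectin of dendritic cells and macrophages, by 0.94 (adjusted p = 0.0153). CD209 was detected in 1 of the 4 piglets at 4 wk postweaning and in none at day 1, so the size of its rise is uncertain. CD207, with 1 probe, was detected in amoxicillin piglet 18 alone at day 1 and in piglets 37 and 38 at 4 wk postweaning. The size of its rise is uncertain as well. CD1D, which presents lipid antigens, rose from day 1 to day 7 in amoxicillin piglets by 1.53 (adjusted p = 0.0135). CD1E was called in neither arm over the whole interval, and CD163L1 was detected in 1 amoxicillin piglet, number 38 of 4 wk postweaning, at 9.47.

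Myeloid markers without a CD name rose in 4 of 14 tested genes in control and 10 of 14 in amoxicillin piglets, and none fell (25 of the 36 listed had a probe), where 25.6% and 31.4% of all tested genes were called in either direction. FCGR3A, the Fc receptor CD16 of monocytes and NK cells, rose by 2.05 and 2.76.

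None of the B members was called between day 1 and 4 wk postweaning, and at weaning a single piglet of each arm stood far above the others. CD72, an inhibitory coreceptor, was 10.74 in control piglet 7 and 11.25 in amoxicillin piglet 8 of the weaning groups. The other weaning piglets had 7.33 and 6.79 in the control arm and 7.11, 7.91 and 7.48 in the amoxicillin arm, and the highest of the other 41 arrays was 9.23. CD180, a toll-like receptor homologue of B cells, was 11.02 in the amoxicillin piglet and higher in the control piglet, against at most 8.79 elsewhere.

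These 2 piglets, picked for their B members, stood above all 41 others in 7 of the 38 members, and below all others in 2. How many of all accessions did so was not counted, so these numbers are not read as a trait of the members. Beside the B members the 7 were CD247 (11.77 and 12.31), CD40 (12.90 and 12.12), CD48 (13.98 and 14.49) and CD55 (9.41 and 9.59), while CD36 (7.47 and 6.15) and CD82 (12.61 and 12.52) were the 2 below. Outside the members, MS4A1 (CD20 of B cells) stood at 12.65 and 12.86 against at most 9.55 elsewhere. BLNK, a further B cell marker, did not set both apart, at 14.39 and 14.47 against at most 14.46. The summed B and plasma cell markers were 15.16 and 15.34, against at most 15.12 elsewhere. The summed follicle markers were 13.51 and 12.75, within the range of the other arrays, which reached 15.10, and the summed T and NK markers were 13.96 and 13.52, also within it. Both piglets were therefore left out together as an alternative chosen after the values were seen. One B member, CD72, was then called higher at 4 wk postweaning in amoxicillin piglets (1.58, adjusted p = 0.00899), and 17 members rose and 4 fell there, with 28.1% of all accessions called. In control piglets 14 rose and 2 fell without them, where 13.2% were called.

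**Figure D4:**
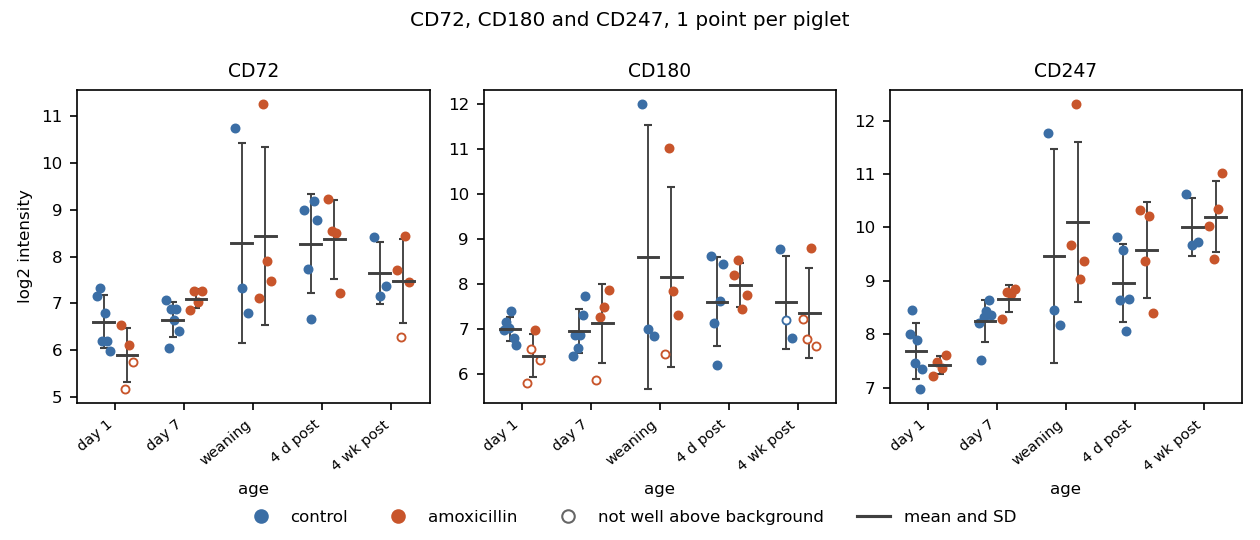
Log2 intensity (vertical axis) of the B members CD72 and CD180 and of CD247 in each piglet by age, with the group mean and SD, and open circles for piglets in which the gene was not well above background. A single piglet of each arm at weaning stands above all others in every panel, with CD72 at 10.74 and 11.25.

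CD72 was called in the F-test between ages in amoxicillin piglets (limma without the filter, adjusted p = 0.0143) and not in control piglets. In that test 25 of the 38 members were called in amoxicillin piglets and 18 in control piglets, where 34.8% and 13.7% of all accessions were.

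Among the broadly expressed members CD9, a tetraspanin of epithelium, platelets and leukocytes, rose in both arms. It was 10.49 to 11.35 (median 11.23) in control and 11.05, 10.67, 10.08 and 11.74 in amoxicillin piglets at day 1. It was 13.29, 12.17 and 13.36, and 13.05, 12.29, 12.78 and 13.26, at 4 wk postweaning, without overlap. The rise was 1.86 (adjusted p = 7.25e-04) and 1.96 (adjusted p = 3.45e-04). All 6 of its probes moved alike, by 1.55 to 2.12 in control and 1.67 to 2.34 in amoxicillin piglets. CD48, an adhesion molecule on most leukocytes, rose by 1.54 (adjusted p = 0.00606) and 1.61 (adjusted p = 0.00358). Without control piglet 34 of 4 wk postweaning the control value was 1.41 and still called (adjusted p = 0.0477), while without both that piglet and the filter it was not (adjusted p = 0.0921).

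CD81 (NM_001078679), a tetraspanin of B cells, other leukocytes and epithelium, fell. In control piglets it was 14.37 to 14.85 (median 14.52) at day 1 and 12.22, 11.30 and 12.20 at 4 wk postweaning. In amoxicillin piglets it was 14.63, 13.80, 14.27 and 13.98, and then 11.97, 13.03, 13.07 and 12.35. The groups did not overlap in either arm, and the difference was -2.67 ± 0.41 (adjusted p = 8.61e-06) in control and -1.56 ± 0.41 (adjusted p = 0.00378) in amoxicillin piglets. In amoxicillin piglets the step from day 7 to weaning was called (-1.58, adjusted p = 0.0118), as was that of CD36 (-1.47, adjusted p = 0.00808), where 11.3% of tested genes were called. Within slides neither was called in amoxicillin piglets, at -1.10 for CD81 and -1.95 for CD36, where 1 day 7 array shared a slide with weaning. In control piglets CD81 was called within slides (-1.42, adjusted p = 0.0362).

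CD46, a complement regulator, was higher by 1.64 in control piglets (adjusted p = 0.0217), a call that was lost without control piglet 13 (adjusted p = 0.0648) or 34 (adjusted p = 0.108) of 4 wk postweaning. In amoxicillin piglets it was higher by 0.73 and not called (adjusted p = 0.319). CD69, an early activation antigen, rose by 1.55 in control piglets (adjusted p = 0.0211) and stood at 0.36 in amoxicillin piglets (adjusted p = 0.599). CD70, the ligand of CD27, rose in amoxicillin piglets by 1.72 (adjusted p = 0.00217), and CD82, a tetraspanin, by 0.71 (adjusted p = 0.0285). CD70 was detected in 1 of the 4 piglets at 4 wk postweaning and in none at day 1, so the size of its rise is uncertain. CD82 was saturated on 4 arrays, and its 3 probes gave 0.41 to 1.14, so that the size of its rise is uncertain. CD34, a marker of endothelium and progenitor cells, fell in amoxicillin piglets by 1.15 (adjusted p = 0.00775) and stood at -0.75 in control piglets (adjusted p = 0.139), while the endothelial marker PECAM1 fell by 1.45 and 1.57. The 3 probes of CD34 disagreed, at -2.91 to 0.06 in amoxicillin piglets. CD58, the ligand of CD2, differed by 0.10 and -0.03 without a call, and CD47, the ligand of the macrophage receptor SIRP alpha, by 0.41 and 0.68. CD5L rose in both arms, by 1.92 (adjusted p = 0.0321) and 1.86 (adjusted p = 0.0210), and was detected on 15 of 23 control and 8 of 20 amoxicillin arrays. Its control call was lost without control piglet 34 of 4 wk postweaning. The 4 probes of CD5L gave 0.69 to 3.39 in control and 0.94 to 3.09 in amoxicillin piglets, so the size of its rise is uncertain.

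Maternal amoxicillin was compared with the control at each age. The study's threshold was used, an adjusted p under 0.05 with a log2 difference beyond 1.5. None of the 19 tested members was called at day 1, day 7, weaning, 4 d or 4 wk postweaning, where 0.211%, 0%, 3.41%, 1.54% and 2.13% of tested genes were called. At an unadjusted p under 0.05 stood 1, 1, 1, 1 and 0 members, and at day 7 887 genes. The median difference of the 19 was -0.14, 0.25, 0.17, 0.28 and -0.02 at the 5 ages, against -0.12, -0.06, -0.07, -0.01 and -0.17 over all tested genes. The number of arrays limits this comparison, and 95% intervals of the members at single ages reached from -1.76 to 2.07. The treatment difference changed with age in none of the 19 (smallest adjusted p = 0.273; 6.18% of tested genes called).

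The member nearest to a call was CD58 at weaning. It was 9.95, 10.39 and 9.91 in control and 11.47, 10.45, 10.94 and 10.91 in amoxicillin piglets, with no overlap. The difference of 0.86 ± 0.23 had an adjusted p of 0.0158 but stayed under the fold threshold. CD81 4 d postweaning was 12.43, 12.62, 11.75, 11.94 and 13.66 in control and 13.23, 13.95, 13.63 and 14.20 in amoxicillin piglets, a difference of 1.27 (adjusted p = 0.0649) with control piglet 32, at 13.66, inside the amoxicillin range. Without that piglet the difference was 1.57 and called (adjusted p = 0.0405). CD3E at 4 wk postweaning was 0.85 higher in amoxicillin piglets (95% interval -0.18 to 1.89) and CD96 0.85 lower (difference -0.85, interval -1.76 to 0.05), neither of them called.

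Averaged over the 5 ages none of the 19 was called either (10.1% of tested genes called, 3 members at an unadjusted p under 0.05). The largest averaged differences were those of CD81 (0.42, 95% interval 0.05 to 0.80, adjusted p = 0.143), CD247 (0.32, -0.20 to 0.83) and CD58 (0.27, 0.08 to 0.46, adjusted p = 0.0567). The lowest were those of CD47 (-0.29, -0.65 to 0.08), CD36 (-0.21, -0.53 to 0.12) and CD46 (-0.08, -0.56 to 0.41). For the T cell members the averaged intervals were narrow beside the age differences, at -0.37 to 0.22 for CD8A, -0.29 to 0.56 for CD3E and -0.38 to 0.37 for CD96. The call of CD58 depended on single arrays, since it passed the threshold when any 1 of 7 arrays was left out. These were control piglets 17 of day 1, 24 of weaning and 10 of 4 d postweaning and amoxicillin piglets 17 of day 1, 8 of weaning, 34 of 4 d and 37 of 4 wk postweaning (adjusted p = 0.0222 to 0.0478).

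**Figure D5:**
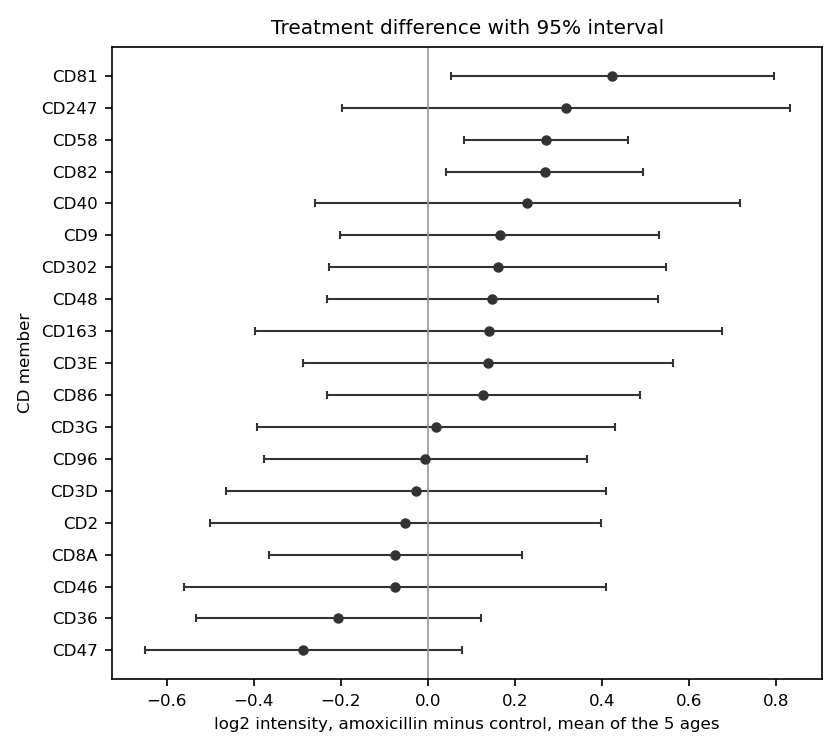
Difference between amoxicillin and control piglets in log2 intensity (horizontal axis), averaged over the 5 ages, for each of the 19 tested members (vertical axis), with its 95% interval. All point estimates lie between -0.29 and 0.42, and the intervals of CD81, CD58 and CD82 lie above 0 without passing the adjusted threshold.

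Without the filter on dim spots 1 of the 38 members was called at a single age, CD207 at 4 wk postweaning, where 3.62% of all accessions were called. At the 4 younger ages none was, with 2.19%, 0.00836%, 2.37% and 0.585% of all accessions called, nor was any averaged over the ages, with 9.44%. It was 5.70, 5.42 and 5.92 in control piglets, of which 1 was detected, and 8.14, 9.16, 5.95 and 7.01 in amoxicillin piglets, of which the first 2 were. The difference was 1.88 ± 0.48 (limma without the filter, adjusted p = 0.0158). The amoxicillin piglets lay above the control piglets, but the lowest of them, at 5.95 and not detected, stood beside a control piglet at 5.92. The size of the difference is therefore uncertain. The averaged difference of CD207 was 0.56 (adjusted p = 0.0621).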

How the data were processed

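Single-colour (Cy3) Agilent arrays of 43 piglets were read with Feature Extraction 10.7.3.1. Per the file headers, the deposited intensities are linear scanner values of each spot and its local background, not scaled between arrays. A deposited table holds log2 values that the authors made in R 3.0.2 with limma by normexp background correction at an offset of 1 and quantile normalization. Values recomputed here from the intensities in R 4.3.3 with limma 3.58.1 differed from that table by at most 5.00e-09. Spots carrying an outlier flag (45 to 375 per array) were left out and probes of a transcript accession were averaged. A gene was tested when it exceeded 7.68 on the log2 scale, 1.1 times the level of the dark spots, on all arrays of at least 1 group.

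Groups came from the labels. A linear model over the 10 groups was fitted to 12771 genes, or to 35884 accessions without the filter, with Benjamini-Hochberg adjustment over all of them. The threshold was an adjusted p under 0.05, and for treatment at a single age also a log2 difference beyond 1.5. The scripts were tested on simulated data. Members were named by symbols of the RefSeq table of assembly Sscrofa11.1, which named 3037 accessions, so a gene without a named probe was not analysed here. Every member called for treatment, the 8 with the smallest p between ages in each arm, the 3 highest and 3 lowest averaged treatment differences and the lineage-defining members were given with values. The members and marker lists were chosen with earlier results of these data known. A group in which no spot was well above background gives only a bound ("at least"), taken from the lowest detected signal of each array or the gene's own signal if higher. Bounds concern group means, do not allow for the spread between piglets and are given only where every piglet of the other group was detected. Precision is limited by the number of arrays, and p-values measure the spread between these piglets. No sequences were used here. The values of 1 member, which stays in the counts, are not reported here.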

Additional observations from a re-analysis of the deposited data

Results flagged for a closer look

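CD274 was the member whose treatment difference changed between ages in the fit without the filter (F = 5.81, adjusted p = 0.0278). In 23 of 304 groups of 4 to 6 piglets a single piglet stood far from the rest by Dixon's test (7.57%), where chance alone marks about 1 in 20 groups. Among T and NK members the log2 intensities of such piglets were 7.00 for CD3D (amoxicillin day 1, piglet 2, highest), 8.29 for CD247 (amoxicillin day 7, piglet 4, lowest), 6.25 for CD40LG (amoxicillin weaning, piglet 25, highest) and 7.88 for CD8A (amoxicillin 4 d postweaning, piglet 10, highest).

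Among myeloid members the highest piglet stood apart for CD163 at 9.88 (control day 7, piglet 22), CD163L1 at 9.47 (amoxicillin 4 wk postweaning, piglet 38) and CD1E at 10.42 (control 4 d postweaning, piglet 31). The same held for CD209 at 5.74 (amoxicillin weaning, piglet 7) and at 7.37 (amoxicillin 4 wk postweaning, piglet 39), CD36 at 8.66 (control 4 d postweaning, piglet 32), CD40 at 11.89 (amoxicillin 4 d postweaning, piglet 10) and CD80 at 6.77 (control day 7, piglet 4).

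Among broad members the highest piglet stood apart for CD46 at 10.35 (control 4 d postweaning, piglet 30), CD47 at 11.42 (control day 1, piglet 19B), CD59 at 7.83 (amoxicillin 4 wk postweaning, piglet 38), CD69 at 8.15 (control 4 d postweaning, piglet 10) and CD70 at 8.80 (amoxicillin 4 d postweaning, piglet 34). The lowest did for CD34 at 6.14 (amoxicillin 4 wk postweaning, piglet 40), CD47 at 10.15 (amoxicillin 4 wk postweaning, piglet 39) and CD55 at 6.19 (control day 7, piglet 4) and 6.70 (amoxicillin 4 d postweaning, piglet 32). CD5L stood apart at 4.40 (control day 1, piglet 17, lowest) and 6.45 (amoxicillin day 1, piglet 2, highest).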

How the results depend on the processing

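Counts here are of the 19 tested members unless another filter is named. Day 1 and day 7 treatment counts stayed at 0 under all 13 alternatives and with any array left out. At weaning the count was 1 without a fold threshold (CD58) and 2 with 1 value per probe name (CD34 and CD82), a choice made after seeing the data. At 4 wk postweaning it was 1 with no filter and 1 with a filter on spots well above background. Averaged over ages it was 2 per probe name and 2 without both weaning piglets high in B members, also chosen after seeing the data (CD58 and CD82). The change of the treatment difference with age gave 1 with no filter, 1 with the filter on detected spots and 1 per probe name (CD82). With slide as a fixed block the rise or fall from day 1 to 4 wk postweaning was called for 5 members in control and 1 in amoxicillin piglets, against 13 and 14 without it, and the F-test between ages for 5 and 3, against 13 and 15. That F-test gave 25 of 38 members in amoxicillin piglets with no filter and 24 with the filter on detected spots. The causes were not tested.

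With each array left out in turn, treatment counts ran from 0 to 1 at weaning, 0 to 1 at 4 d, 0 to 1 at 4 wk postweaning, 0 to 2 averaged and 0 to 1 for the change with age. Age changes ran from 12 to 14 in control and 12 to 15 in amoxicillin piglets, and F-tests from 13 to 17 and 14 to 18. CD247 at weaning was called without control piglet 7 (1.78, adjusted p = 0.0497). CD274 entered the tested genes and was called at weaning without control piglet 30 of 4 d or 37 of 4 wk postweaning or amoxicillin piglet 33 of 4 d postweaning (-1.52 each), and in the change with age (F = 5.03, 9.90 and 8.83). It was also called at 4 d postweaning without amoxicillin piglet 33 (1.78, adjusted p = 0.0385) and at 4 wk postweaning without control piglet 37 (-2.05, adjusted p = 0.0179). Each of these piglets was the lowest of its group, at 6.33, 6.22 and 7.51, under the filter level of 7.68. Leaving it out let CD274 pass the filter through that group, so these calls partly follow from the filter and are not read as support. Averaged over ages, CD81 was called without amoxicillin piglet 7 of weaning (0.53, adjusted p = 0.0348) and CD82 without piglet 8 (0.34, adjusted p = 0.0134). The averaged difference of CD46, which was not called, turned positive without control piglet 24 of weaning (0.040), amoxicillin piglet 8 of weaning (0.076) or amoxicillin piglet 40 of 4 wk postweaning (0.032), within a range of -0.22 to 0.076.

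Same-numbered piglets of the arms correlated at -0.27 to 0.44, and 4 of 10 pairs exceeded 0.1. So few pairs cannot decide whether the shared numbers mark a pairing. With the number as a replicate block the averaged count was 1 (CD58, 0.27, adjusted p = 0.0486), and no other count moved by over 1.5 times.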
